A study of Mus musculus with 6 samples.

Results

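The genes described here are 10 genes of the endoplasmic reticulum (ER) folding machinery and of the unfolded protein response, measured by RNA-Seq in embryonic mouse lenses with and without conditional inactivation of Gata3. They were named by symbol under a rule that uses no measured value, though with earlier results of these data known, and comprise Hspa5, Hsp90b1, Calr, Canx, Pdia3, Pdia4, Pdia6, Xbp1, Atf6 and Herpud1. All 10 were found among the 13024 genes of the deposited count table, and all 10 were among the 12879 genes with enough counts to be tested. The lenses were collected at the embryonic stage E14.5 from mice of a mixed C57BL/6 and FVB background, and each group consisted of 3 pools of 10 lenses from 5 embryos. The conditional knockout (CKO) lenses were homozygous for a floxed Gata3 allele and carried the Pax6-Cre transgene, which is active in the precursor ectoderm of lens and cornea and in scattered retinal cells. Control lenses had no Cre and are labelled wild type, whereas the accompanying description gives them as floxed littermates, either heterozygous or homozygous. Since only the CKO lenses carried Cre, an effect of Cre itself and an effect of Gata3 loss cannot be told apart.

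Proteins that enter the secretory pathway fold in the ER lumen with the help of Hsp70 and Hsp90 type chaperones, lectin chaperones that bind monoglucosylated glycoproteins, and protein disulphide isomerases that form and rearrange disulphide bonds. When unfolded proteins accumulate, the transmembrane sensors Ire1, Perk and Atf6 start the unfolded protein response, in which spliced Xbp1, cleaved Atf6 and translated Atf4 raise the transcription of chaperones and of ER-associated degradation genes. Lens fibre cells make large amounts of membrane proteins during elongation and later lose their ER together with the other organelles, and the unfolded protein response has been studied in lenses that express mutant secreted or membrane proteins.

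The sequence that joins many of these genes is the ER stress response element, which is given here because it is the known site of Atf6 and Xbp1 action in the promoters of ER chaperone genes. It consists of CCAAT, 9 bases of any kind and CCACG, and was searched on both strands in the RefSeq promoter windows (GRCm38.p6, 250 bases before to 50 bases after each transcription start). A second form has ATTGG, 1 base of any kind and CCACG. Windows were found for 9 members, and Atf6 had none. The complete element lay in the windows of 5 of the 9 members and in 39 of all 32851 windows (0.119%). The stretches below are written 5′ to 3′ on the strand of the gene, with the element in capitals.
Hspa5, chr2:34772020-34772048, plus strand: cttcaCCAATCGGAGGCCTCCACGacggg
Hsp90b1, chr10:86705633-86705661, minus strand: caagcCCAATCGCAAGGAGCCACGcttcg
Hsp90b1, chr10:86705528-86705556, minus strand: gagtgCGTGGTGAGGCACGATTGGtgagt
Calr, chr8:84847070-84847098, minus strand: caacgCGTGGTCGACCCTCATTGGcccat
Canx, chr11:50325795-50325823, minus strand: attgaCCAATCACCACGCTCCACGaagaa
Pdia6, chr12:17266486-17266514, plus strand: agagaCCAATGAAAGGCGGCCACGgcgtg

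The elements of Hspa5, Canx and Pdia6 and the farther one of Hsp90b1 were in forward orientation, and those of Calr and the nearer one of Hsp90b1 were in reverse orientation. Hspa5 had its element 65 to 47 bases before the RefSeq start, and Calr at 162 to 144 bases. Hsp90b1 was the member with 2 complete elements, at 212 to 194 and 107 to 89 bases before the start, and its upstream sequence shows them in context, with both in capitals.
Hsp90b1, chr10:86705510-86705694, minus strand: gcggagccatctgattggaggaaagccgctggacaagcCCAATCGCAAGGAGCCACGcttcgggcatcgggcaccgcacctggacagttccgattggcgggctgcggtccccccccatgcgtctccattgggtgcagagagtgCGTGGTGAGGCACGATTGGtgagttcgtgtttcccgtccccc

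Herpud1 carried the second form, 52 to 42 bases before its start, which was present in 12 of all windows (0.0365%). A search for the element without its last base, chosen after the windows had been seen, found Pdia3, Pdia4 and Herpud1 besides the 5 members with the complete element, which by its letters always includes the shorter one. The shortened form was present in 120 of all windows (0.365%). In the GENCODE M21 annotation the Hspa5 and Pdia3 genes start upstream of the RefSeq start, so that their elements lie inside the annotated gene. The window of Xbp1 held none of these letters in this arrangement.
Herpud1, chr8:94386372-94386392, plus strand, second form: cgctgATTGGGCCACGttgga
Herpud1, chr8:94386406-94386433, plus strand, shortened form: ctcagCCAATGGATGGCAGCCACagaga
Pdia3, chr2:121413868-121413895, plus strand, shortened form: cgcagCCAATCGGCGGCTGCCACactgc
Pdia4, chr6:47813597-47813624, minus strand, shortened form: accgaGTGGCAGCCCGTGATTGGtggtc

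Total counts in genes ranged from 15157230 to 18811104 per library. Gata3 itself had 156 to 386 counts in the control libraries and 894 to 1064 in those labelled CKO, so the gene count was higher where the label gives the knockout. The count covers the whole gene, of which a single exon is floxed, so it does not measure the excision and does not bear on whether the labels are right. The groups are called by their labels throughout. Lens markers were present in every library: crystallin transcripts, led by Cryaa and Cryba1, made up 6.63% to 16.5% of counts in the control libraries and 5.47% to 7.27% in those labelled CKO, with control pool 2 far above the other 5. In bulk tissue, fewer cells of a type and less RNA per cell cannot be told apart.

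None of the 10 members passed the test for a difference between the groups. By edgeR's quasi-likelihood test with Benjamini-Hochberg adjustment over all genes, every member had an adjusted p of 0.9998, in a comparison that called 0 of the 12879 genes tested (0%). At an unadjusted p under 0.05 there were again 0 members, against 457 of all genes (3.55%). DESeq2 called 85 of 12866 genes (0.661%), and no member was among them. The fold changes were small: in the CKO-labelled libraries 5 members were on the higher side and 5 on the lower side. Their median log2 fold change was -0.010, while the median of all genes tested was 0.0019 and 50.6% of them were on the higher side. In 7 of the 10 members (70%) the log2 fold change was smaller than 0.1 in size, as it was in 55.5% of all genes tested.

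**Figure D1:**
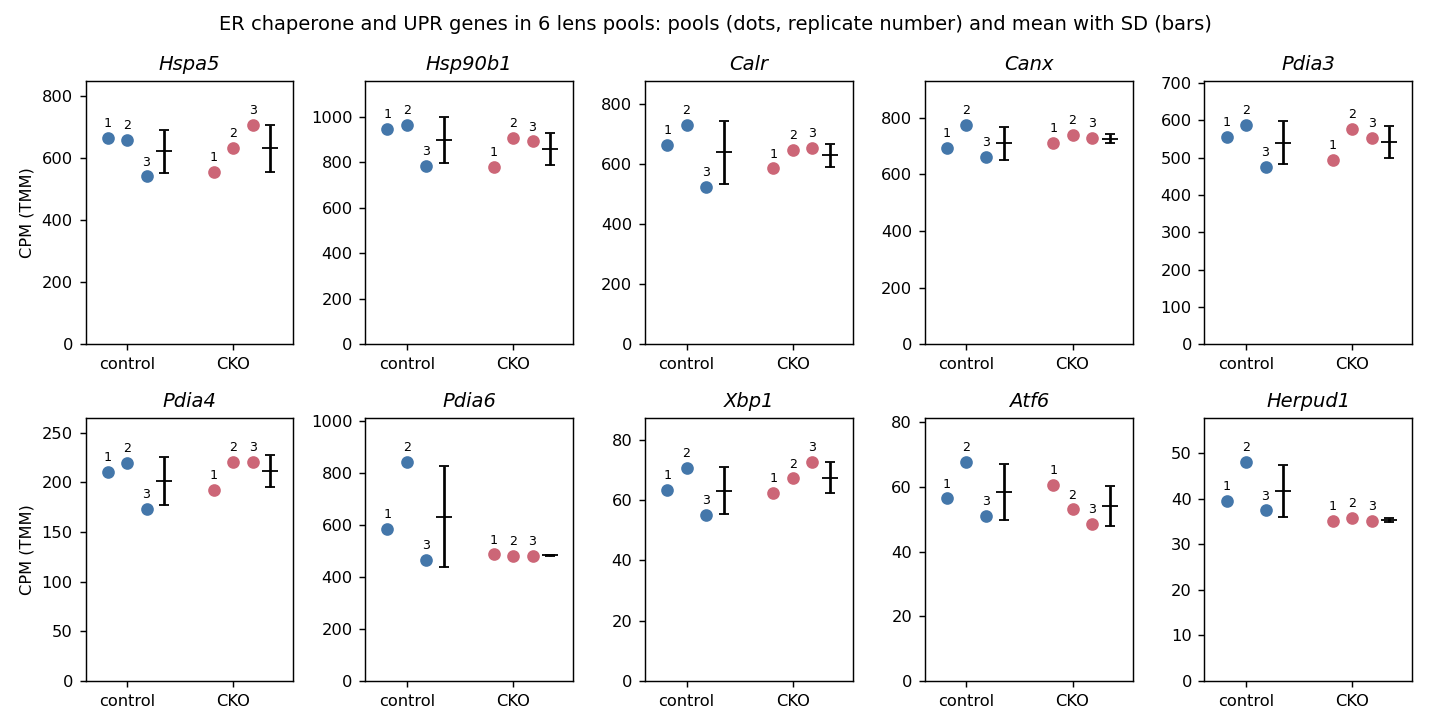
Expression in CPM (TMM-scaled, vertical axes from 0) of the 10 members in the 3 control pools (blue) and the 3 pools labelled CKO (red); each dot is a pool of 10 lenses with its replicate number, and the black bars give the group mean with its SD. The groups overlap in 9 panels, and in the Herpud1 panel the pools labelled CKO (35.1 to 35.8 CPM) sit just below the lowest control pool (37.4 CPM).

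Hspa5 (chr2:34771970-34777547, plus strand, here and below in mm10 after GENCODE M21) encodes BiP, the Hsp70 chaperone of the ER lumen, whose release from the sensors is part of their activation and whose transcript is a widely used readout of the response. Its level in CPM, which are counts relative to the library total after scaling by the TMM method, was 662.7, 658.1 and 540.1 in control pools 1 to 3 and 553.6, 630.9 and 705.9 in pools 1 to 3 labelled CKO. The highest and the lowest pool belonged to different groups, and 2 of the 3 pools labelled CKO lay inside the control range. The ratio of the groups was 1.02 (95% interval 0.822 to 1.26), with a log2 fold change of 0.023 ± 0.129 (SE) on the edgeR scale.

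Hsp90b1 (chr10:86690209-86705509, minus strand) encodes Grp94, the Hsp90 chaperone of the ER, which acts late in the folding of integrins and other client proteins. With 946.5, 963.8 and 782.8 CPM in the control pools and 779.1, 905.0 and 891.1 CPM in the pools labelled CKO it also overlapped between the groups. Control pool 3 and pool 1 labelled CKO were nearly equal and the lowest of the 6. The ratio was 0.956 (95% interval 0.787 to 1.16). In the GENCODE M21 annotation 415 exon bases of Hsp90b1 are shared with the opposite-strand pseudogene 1810014B01Rik, 133 with the miRNA gene Gm25745 and 63 with Gm15344, and how the counting treated reads there is not given in the sources used here.

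Calr (chr8:84841850-84846934, minus strand) and Canx (chr11:50293961-50325673, minus strand) encode calreticulin and calnexin, the soluble and the membrane-bound lectin chaperone of the glycoprotein folding cycle. Calr was at 663.7, 729.8 and 523.5 CPM in the control pools and at 584.9, 647.0 and 653.0 CPM in the pools labelled CKO. All 3 of the latter fell inside the control range, which was wide (CV 16.5% against 6.00%). Canx, at 693.4, 774.5 and 660.0 CPM against 711.0, 739.1 and 729.1 CPM, likewise had all its pools labelled CKO inside the control range. It was the most even member, its highest library being 1.17 times its lowest. The ratio of the groups was 0.983 for Calr (95% interval 0.787 to 1.23) and 1.02 for Canx (95% interval 0.880 to 1.19). On the log2 scale the Canx interval was the narrowest of the 10.

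Of the disulphide isomerases, Pdia3 (chr2:121413775-121438687, plus strand) encodes ERp57, the isomerase that works with calnexin and calreticulin on glycoproteins, and gave 556.0, 587.4 and 475.4 CPM in control and 493.0, 577.5 and 552.6 CPM in the pools labelled CKO. Its group means, 539.6 ± 57.8 and 541.0 ± 43.4 CPM (SD, n = 3 each), were the closest of any member. Pdia4 (chr6:47796141-47813430, minus strand), which encodes ERp72, was at 210.4, 220.0 and 173.7 CPM against 192.9, 221.0 and 220.3 CPM, with a ratio of 1.05 (95% interval 0.876 to 1.26). Pools 2 and 3 labelled CKO were marginally above the highest control pool, and pool 1 lay between the control values. Of the exon bases, 18 of Pdia3 are shared with Catsper2 on the other strand and 14 of Pdia4 with Mir704.

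Pdia6 (chr12:17266545-17284770, plus strand), which encodes the isomerase P5 that also limits the activity of Ire1 and Perk, had the widest spread of the 10. Its level was 586.1, 845.0 and 464.8 CPM in control pools 1 to 3, and 487.2, 482.0 and 481.8 CPM in the pools labelled CKO. Control pool 2 stood far above the rest, control pool 3 was below all 3 pools labelled CKO, and the latter were nearly identical (CV 0.640% against 30.7% in control). The log2 fold change was -0.39 ± 0.209 (SE; 95% interval -0.89 to 0.11), the largest in size among the members. It was -0.11 without control pool 2 and -0.56 without control pool 3, and in the latter fit the edgeR unadjusted p was 0.00883 in place of 0.110. In control pool 2 the lens fibre markers summed to 26787 CPM, against 8358 to 12914 CPM in the other 5 libraries; their part in the Pdia6 level was not tested. Pdia6 shares 50 exon bases with Atp6v1c2 on the other strand.

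The genes with the profile most like that of Pdia6 over the 6 libraries, by the root mean square difference of centred log2 CPM, were Fam234a (0.0326), Ppp1r15a (0.0351), Plekhg3 (0.0396), Gyg (0.0466) and Mettl22 (0.0514). Ppp1r15a encodes Gadd34, the phosphatase subunit that removes the eIF2α phosphorylation placed by Perk. It was at 15.02, 20.86 and 12.06 CPM in the control pools and at 12.64, 12.77 and 12.75 CPM in those labelled CKO. As for Pdia6, control pool 2 was the highest and control pool 3 the lowest. The choice by likeness of profile favours such a shared order of pools. All 5 of these genes had edgeR adjusted p-values of 0.9998.

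Of the regulators, Xbp1 (chr11:5520659-5525893, plus strand) encodes the transcription factor made after Ire1 splices its mRNA. It was measured at 63.5, 70.7 and 55.1 CPM in control and 62.3, 67.2 and 72.7 CPM in the pools labelled CKO. Gene counts do not separate the spliced from the unspliced form. Xbp1 had the highest log2 fold change of the members, 0.096 ± 0.114 (SE), and 2 of the 3 pools labelled CKO lay inside the control range. Atf6 (chr1:170704674-170867771, minus strand) encodes the membrane-bound factor that is cleaved in the Golgi on stress, and its level was 56.4, 67.8 and 51.0 CPM against 60.6, 53.0 and 48.6 CPM. Here control pool 2 was the highest and pool 3 labelled CKO the lowest, with a ratio of 0.926 (95% interval 0.743 to 1.15).

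Herpud1 (chr8:94386438-94395377, plus strand), an ER membrane protein of the degradation machinery and a target of the response, was the member closest to a separation of the groups. It was at 39.5, 48.1 and 37.4 CPM in the control pools and at 35.1, 35.8 and 35.2 CPM in the pools labelled CKO, the latter from 541 to 703 counts per library. It was the only member whose groups did not overlap, 1 of 10, against 1077 of all genes tested (8.36%) without overlap in either direction, of which 604 (4.69% of all) lay lower, so that the share among the members was near that of all genes. The log2 fold change was -0.24 ± 0.111 (SE; 95% interval -0.50 to 0.026), with an edgeR unadjusted p of 0.0701. The exact two-sided permutation test on this gene gave 0.1, which is the smallest p that 3 pools against 3 can give. As for Pdia6, control pool 2 was the highest, and without it the log2 fold change was -0.11 with an unadjusted p of 0.208. Without control pool 3 the values were -0.31 and 0.0292.

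**Figure D2:**
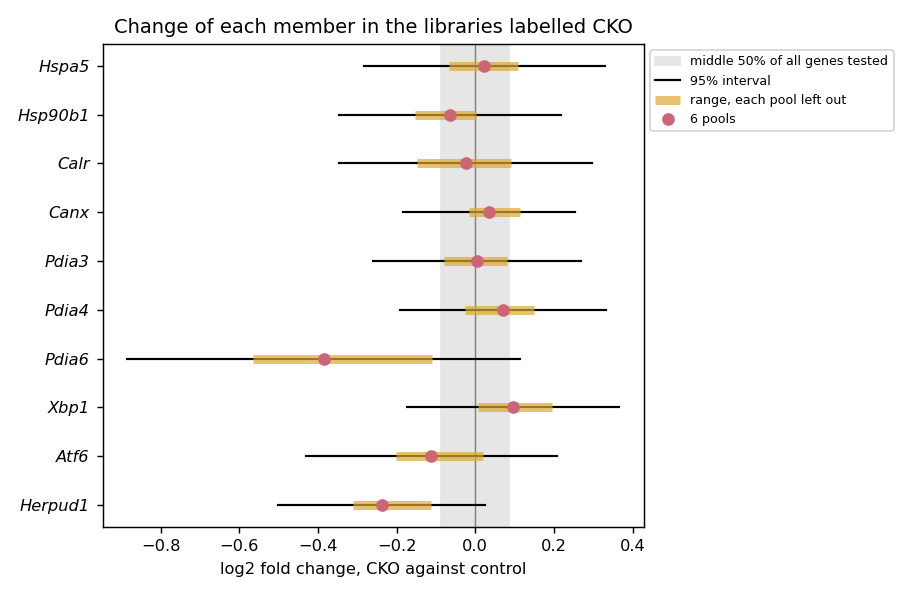
Log2 fold change of each member in the libraries labelled CKO against control (horizontal axis): red dots are the fit over 6 pools, black lines its 95% interval, yellow bars the range of the fits with each pool left out in turn, and the grey band the middle 50% of all genes tested. Every interval crosses 0, and the yellow bars of 7 members do so as well, all but those of Pdia6, Xbp1 and Herpud1.

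In TMM-scaled CPM, the extreme values of the members came mostly from control pools. Control pool 3 gave the lowest value of 7 members, and control pool 2 the highest value of 7. The TMM factor of control pool 2 was 0.869, against 0.998 to 1.05 in the other pools, and a lower factor gives higher CPM. Which pool was highest for each member without this scaling is not given here. The members summed to 4478, 4965 and 3764 CPM in the control pools and to 3960, 4358 and 4390 CPM in those labelled CKO, so that the highest and the lowest sum were both from control pools. Taken as a share of all counts, without the TMM scaling, the order was different: the members held 0.447%, 0.431% and 0.389% in control and 0.403%, 0.456% and 0.461% in the libraries labelled CKO. Without control pool 3, only 1 of the 10 members was on the higher side in the libraries labelled CKO and the median log2 fold change was -0.11, and without control pool 2 there were 8 and the median was 0.079. With control pool 3 left out, Pdia6 and Herpud1 passed an unadjusted p of 0.05 in a fit in which 9.65% of all genes did so. The groups of Hsp90b1, Calr, Pdia6 and Herpud1 then did not overlap, 4 of 10, as was the case for 27.7% of all genes with 2 control pools against 3.

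**Figure D3:**
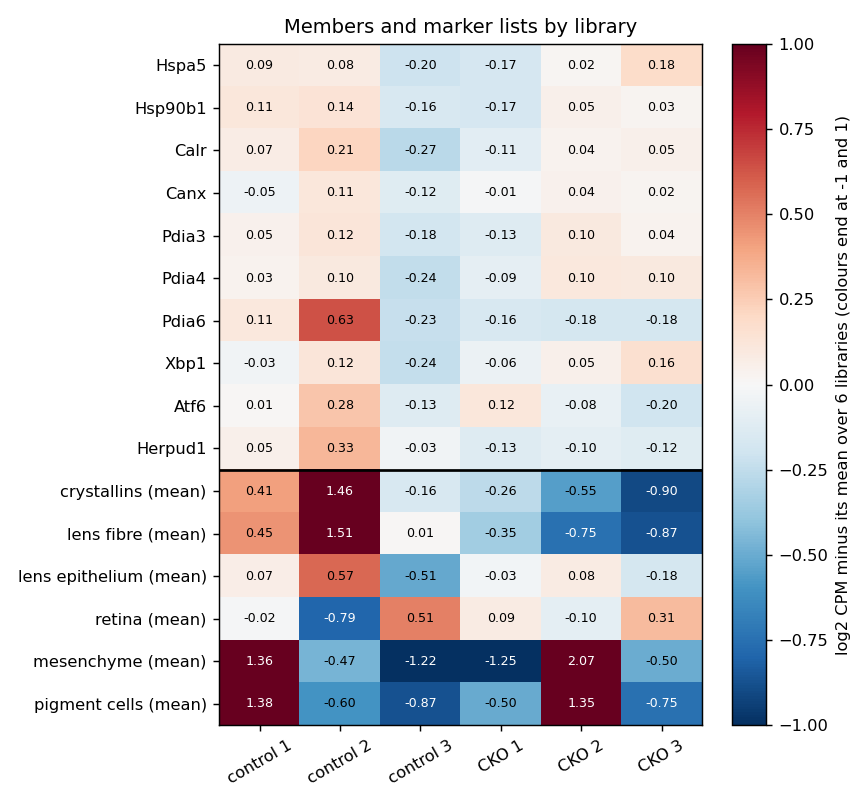
Log2 CPM minus its mean over the 6 libraries (colour and printed value) for the 10 members above the black line, and the mean of the same quantity over 6 marker lists below it; columns are libraries, and colours end at -1 and 1. The members stay between -0.27 and 0.63, with control pool 2 red and control pool 3 blue in every row of a member, while the fibre list reaches 1.51 in control pool 2 and the mesenchyme list 1.36 in control pool 1 and 2.07 in pool 2 labelled CKO.

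Several marker lists spanned a wider range over the libraries than the sum of the members did. The 16 crystallins summed to 64181 to 189392 CPM in control and 52088 to 71414 CPM in the libraries labelled CKO, and the 18 fibre markers to 9186 to 26787 and 8358 to 12381 CPM. The 10 lens epithelium markers, of which Cryab is also among the crystallins, spanned 2194 to 4239 and 3085 to 3502 CPM. They were highest in control pool 2 and lowest in control pool 3. The sum of the members had the same extremes in TMM-scaled CPM, but its share of all counts was highest in pool 3 labelled CKO (0.461%). Opposite to the epithelium markers, the 15 retina markers were highest in control pool 3 with 3300 CPM and lowest in control pool 2 with 1373 CPM. The part of these cell types in the levels of the members was not tested. Mesenchyme markers, led by Col1a2 and Col1a1, were at 2919 CPM in control pool 1 and 5169 CPM in pool 2 labelled CKO, against 432 to 803 CPM in the other 4, and pigment cell markers were at 341 CPM in both of these pools against 69.8 to 98.6 CPM in the others. In TMM-scaled CPM no member had its highest value in control pool 1, and 1 member, Pdia4, had it in pool 2 labelled CKO. That Pdia4 value, 221.0 CPM, was close to those of pool 3 labelled CKO (220.3 CPM) and control pool 2 (220.0 CPM). The part of mesenchyme and pigment cells in the levels of the members was not tested. Blood markers reached 1437 CPM in control pool 2 against 339 to 600 CPM elsewhere, and 3 adult globin genes are listed at 0 in every library of a table limited to genes above an FPKM limit, so that these zeros are no measure of their expression. Vessel, macrophage and surface ectoderm markers summed to at most 393, 147 and 175 CPM in any library.

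**Figure D4:**
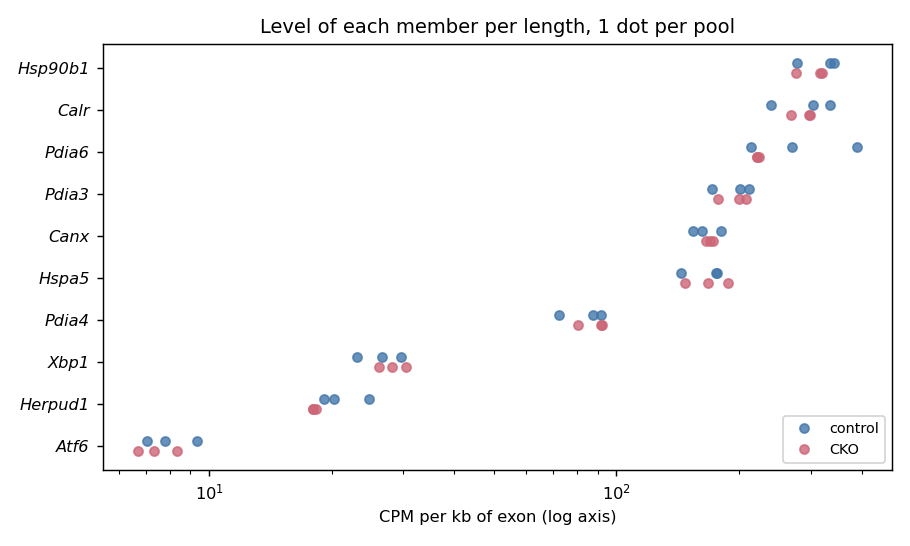
CPM per kilobase of exon (log axis) for the members in order of their mean, with 1 dot per pool, control in blue and labelled CKO in red. The members run from 311 for Hsp90b1 to 7.76 for Atf6 on average, and the ranges of the 2 colours overlap at each gene other than Herpud1.

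Divided by exon length, the chaperones and isomerases stood well above Xbp1, Herpud1 and Atf6. The lengths are merged GENCODE M21 exons while the counts are of RefSeq genes. The order of close neighbours may therefore depend on the length used, which was not tested. The mean over the 6 libraries was 311 ± 28.2 CPM per kb for Hsp90b1, 290 ± 32.5 for Calr, 256 ± 67.7 for Pdia6, 195 ± 16.5 for Pdia3, 168 ± 9.20 for Canx, 167 ± 17.4 for Hspa5 and 86.0 ± 8.04 for Pdia4 (SD over 6 libraries). Below these came Xbp1 with 27.3 ± 2.68, Herpud1 with 19.7 ± 2.56 and Atf6 with 7.76 ± 0.973 CPM per kb. Neighbours in this order whose ranges overlapped were Hsp90b1 and Calr, Calr and Pdia6, Pdia3 and Canx, Canx and Hspa5, and Xbp1 and Herpud1. Hsp90b1 was nevertheless above Calr in each of the 6 libraries, whereas Canx was above Hspa5 in only 4. The gaps below Hspa5, Pdia4 and Herpud1 were free of overlap, and that between Pdia6 (lowest library 213.7) and Pdia3 (highest library 212.1) was so by a small margin.

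The rest of the pathway was followed through 5 lists drawn up by role. Of 16 sensors and factors of the unfolded protein response, 6 were on the higher and 10 on the lower side, with a median log2 fold change of -0.038, and no gene passed the adjusted test. The sensor genes Ern1, which encodes Ire1, and Eif2ak3, which encodes Perk, had log2 fold changes of -0.084 ± 0.146 and 0.12 ± 0.163 (SE). Atf6b, the paralogue of Atf6, was at 0.019, and Mbtps1, the protease that makes the first cut in Atf6, at -0.0044. Ddit3, which encodes the pro-apoptotic factor Chop, was at 8.11 to 10.6 CPM in control and at 7.70 to 10.7 CPM in the libraries labelled CKO. Creb3 had a log2 fold change of -0.21 ± 0.135 (SE).

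Atf4, the factor translated when eIF2α is phosphorylated, was the only gene of the 5 lists with an edgeR unadjusted p under 0.05. The lists held 16, 17, 31, 20 and 19 tested genes, and 3.55% of all genes tested had such a p. Atf4 was at 160.6, 199.7 and 148.0 CPM in control and at 131.4, 133.4 and 120.9 CPM in the pools labelled CKO. The groups did not overlap, as was the case for 8.36% of all genes tested, and control pool 2 was again the highest. The log2 fold change was -0.40 ± 0.120 (SE), with an edgeR unadjusted p of 0.0133 and an adjusted p of 0.990, and the DESeq2 adjusted p was 0.381. Leaving out single pools gave log2 fold changes between -0.49 and -0.25, and without pool 3 labelled CKO the unadjusted p was 0.0519.

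Among 17 tested genes that Atf4 is known to induce, 7 were on the higher and 10 on the lower side, with a median of -0.17 and none with an unadjusted p under 0.05. These genes summed to 1988 CPM in control pool 2 and to 1267 to 1385 CPM in the pools labelled CKO. Control pools 1 and 3, with 1323 and 1297 CPM, lay inside the range of the latter. The cystine transporter subunit gene Slc7a11 had the lowest value, a log2 fold change of -0.96 ± 0.412 (SE), with 178 CPM in control pool 2 and 41.8 to 87.5 CPM elsewhere. It was -0.40 without control pool 2. Asparagine synthetase, Asns, was at 36.6 to 37.4 CPM in control and 29.4 to 33.9 CPM in the libraries labelled CKO, and Ddit4, an inhibitor of mTORC1 signalling, at 38.7 to 48.0 and 48.0 to 59.8 CPM. In both genes the groups did not overlap, in opposite directions, for Ddit4 by a margin of 47.99 against 48.04 CPM, and their edgeR unadjusted p-values were 0.0572 and 0.0588. Groups without overlap were found in 8.36% of all genes tested.

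Of the 31 ER lumen cochaperones and oxidoreductases 14 were on the higher and 17 on the lower side, the median was -0.00319, and none had an unadjusted p under 0.05. Its extremes were Dnajc1 at -0.22 and Ero1lb at 0.23. Hyou1, the large nucleotide exchange partner of BiP, was at 209.0, 234.6 and 190.3 CPM in control and at 199.7, 216.4 and 216.3 CPM in the pools labelled CKO. The BiP cochaperone genes Dnajb9, Dnajc3 and Sdf2l1 had log2 fold changes of 0.15 ± 0.0969, -0.10 ± 0.168 and 0.045 ± 0.201 (SE). P4hb, the founding disulphide isomerase, was at -0.030 ± 0.107 and Manf, a secreted ER stress target, at 0.080 ± 0.102 (SE). Creld2 and Erp44 had the smallest p-values besides Dnajb9, with log2 fold changes of 0.17 and 0.14.

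In the 2 remaining lists no gene passed either threshold. Of 20 tested genes of ER-associated degradation 6 were on the higher and 14 on the lower side, with a median of -0.032 and a range of -0.21 to 0.21, and 0 had an unadjusted p under 0.05. Sel1l, the adaptor of the Hrd1 ligase, was at -0.052 ± 0.0715 and Edem1, a mannosidase-like lectin, at 0.060 ± 0.0883 (SE). The smallest p-values were those of Rnf5 (0.19), Edem3 (-0.21) and Os9 (-0.10), in log2 fold change. Of 19 tested genes of the translocon and signal peptidase 5 were on the higher and 14 on the lower side, with a median of -0.029, and 17 of the 19 had a log2 fold change smaller than 0.1 in size. Spcs2 was at 0.073, Srp72 at -0.056 and Sec11c at -0.23, the last with 20.1 CPM in control pool 2 and 10.00 to 12.6 CPM in the other 5 libraries.

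**Figure D5:**
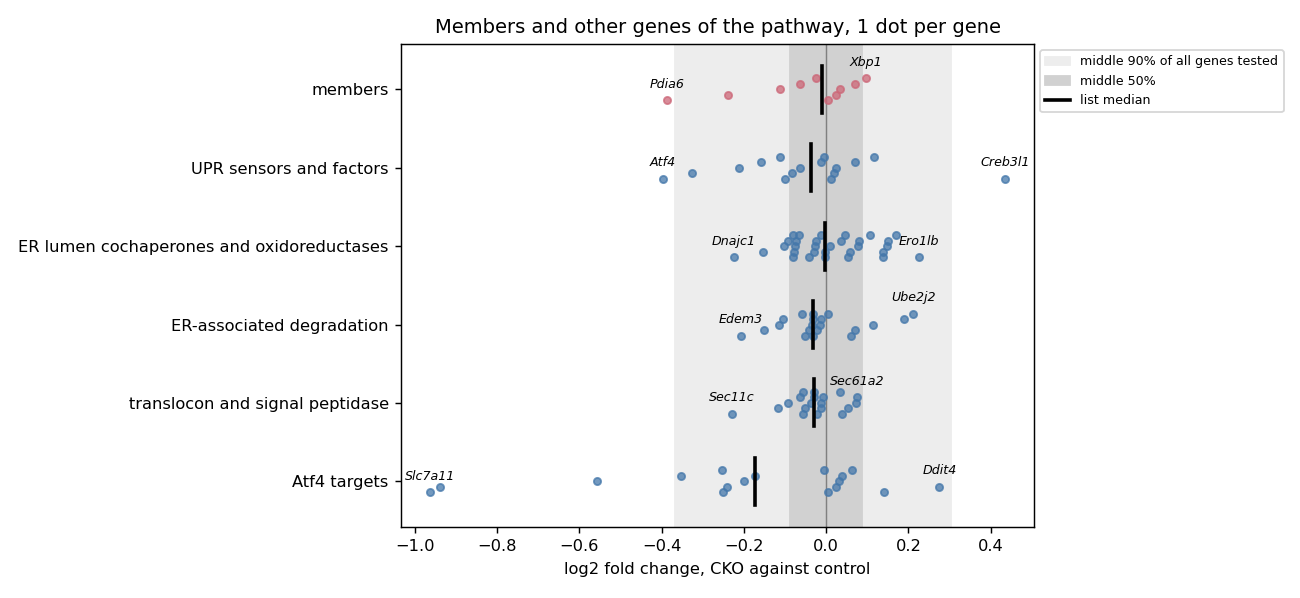
Log2 fold change in the libraries labelled CKO against control (horizontal axis), with 1 dot per gene, for the members (red) and the 5 pathway lists (blue); black bars are list medians, grey bands hold the middle 50% and 90% of all genes tested, and the lowest and highest gene of each list are named. The list medians lie between -0.17 for Atf4 targets and -0.00319 for the lumen cochaperones.

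The promoter element shown above was also used to look beyond the members. Of the 37 genes with the complete element in a RefSeq window, 16 were tested, among them 5 members. Of these 16, 7 were on the higher and 9 on the lower side, with a median log2 fold change of -0.021, and none passed the adjusted test. Adcy3, an adenylyl cyclase gene and not a member, was the only 1 of the 16 with an unadjusted p under 0.05 (log2 fold change 0.46 ± 0.151 (SE), edgeR unadjusted p = 0.0186). Such a p was found for 3.55% of all genes tested. The 7 tested genes other than Herpud1 with the second form had log2 fold changes between -0.14 and 0.17.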

How the data were processed

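PolyA RNA from 6 lens pools was sequenced. Per the labels and the study's methods, the authors trimmed reads, aligned them to mm10 with TopHat2 (2.0.13), counted RefSeq genes with HTSeq (0.6.1) and deposited raw counts of genes above an FPKM limit computed with Cuffdiff (2.2.1); the strand setting is not given in the sources used here. The raw counts were used as deposited. Genes that reached 10 counts in 3 or more libraries were fitted with edgeR (4.0.16, R 4.3.3): TMM factors, quasi-likelihood F-tests on group and Benjamini-Hochberg adjustment over all genes. Adjusted p-values are edgeR's unless DESeq2 (1.42.0) is named. Levels are TMM-scaled CPM, and lengths are merged GENCODE M21 exons. Intervals are 95%. With 3 pools per group, the edgeR and DESeq2 p-values set the difference between groups against the spread between pools, using dispersions moderated across genes. Each pool merges lenses of 5 embryos, so the spread between embryos was not measured.

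The members and lists were chosen with earlier results of these data known, so no list was tested as a set. Named genes were the members, Gata3, 14 pathway genes picked by role, the 3 genes of each pathway list with the smallest p, the 2 most abundant genes of each marker list and the 5 nearest profiles to the widest-ranging member; list extremes and Adcy3 were named after their values were seen. Not every gene under this rule is reported here. Alternatives were DESeq2, RLE factors, crystallins left out of library sizes, other count filters, a replicate block and each library left out. The fit was run on simulated data to check its median estimates of change, and how often it detects a change is not reported here.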

Additional observations from a re-analysis of the deposited data

How the results depend on the processing

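Under DESeq2, RLE factors, library sizes without crystallins, the other count filters and the replicate block, all 60 member values kept their direction and none passed the adjusted threshold. With each library left out, 13 of 60 changed sign, the largest at 0.0921 in size. DESeq2 called 85 genes at an adjusted p under 0.05, where edgeR called 0 and gave 457 at an unadjusted p under 0.05; the cause was not tested. In the pathway lists, 2 genes, Atf4 and Slc7a11, had an unadjusted p under 0.05 on the lower side under DESeq2, and 1 in the edgeR fit. Of all genes tested, 3.94% under DESeq2 and 3.55% in the edgeR fit had such a p in either direction.

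The replicate numbers are not stated to mark shared litters or days. For the pools labelled CKO they follow the sample titles, and the deposited count columns number the same pools differently. By the title numbers, the deviations of same-numbered pools correlated at -0.487, 0.0899 and 0.442. So few correlations cannot settle whether any pools are paired. Control pool 1 correlated best with pool 2 labelled CKO (0.558). With the numbers as a replicate block, 2 pathway genes were lower (Atf4 and Slc7a11) and 1 higher (Ddit4) at an unadjusted p under 0.05, against 1 and 0 without it, and Hyou1 moved from -0.00319 to 0.000834 in log2 fold change. The number of genes at an unadjusted p under 0.05 went from 457 to 516, and no member was among them.

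Over the fits with 1 library left out, members with an adjusted p under 0.05 numbered 0 in each and members with an unadjusted p under 0.05 numbered 0 to 2, the 2 without control replicate 3. Members on the higher side ranged from 1 without control replicate 3 to 8 without control replicate 2, and members without overlap from 1 to 4, the 4 without control replicate 3, in fits where 13.5% to 27.7% of all genes did not overlap, the highest share also without control replicate 3. Genes with an adjusted p under 0.05 ranged from 0 to 8, and with an unadjusted p from 268 without CKO replicate 3 to 1243 without control replicate 3 (811 without control replicate 2). Pathway genes with an unadjusted p under 0.05 ranged from 0 to 10 on the lower side and from 0 to 6 on the higher side, the highest counts without control replicates 3 and 2. In those fits, 9.65% and 6.30% of all genes had an unadjusted p under 0.05 in either direction. The 5 pathway lists held 16, 17, 31, 20 and 19 tested genes.

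The log2 fold changes that changed sign ranged over the left-out libraries from -0.068 to 0.11 for Hspa5, -0.15 to 0.00060 for Hsp90b1, -0.15 to 0.092 for Calr, -0.015 to 0.11 for Canx, -0.080 to 0.080 for Pdia3, -0.025 to 0.15 for Pdia4 and -0.20 to 0.020 for Atf6. For the pathway genes they ranged from -0.17 to 0.025 for Ern1, -0.029 to 0.063 for Atf6b, -0.086 to 0.15 for Ddit3, -0.27 to 0.071 for Dnajc3, -0.073 to 0.089 for Hyou1, -0.15 to 0.19 for Sdf2l1, -0.098 to 0.052 for P4hb, -0.042 to 0.051 for Mbtps1, -0.0036 to 0.16 for Manf and -0.43 to 0.12 for Sec11c. Each member had 541 or more counts in every library; counting error and the spread between the 3 pools of a group were not separated.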
